A study of Homo sapiens with 4 samples.

Results

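Interleukin-1 cytokines and their receptors were followed in PC3 cells after depletion of ALKBH3, an enzyme that removes methyl groups from damaged nucleic acids. The set holds 10 genes: the ligands IL1A, IL1B, IL18 and IL33, the receptor antagonist IL1RN, the signalling receptors IL1R1, IL1RAP, IL1RL1 and IL18R1, and the decoy receptor IL1R2. They were chosen by family membership and because the measured signal of IL1B was lower after ALKBH3 knockdown while that of most inflammatory genes was higher, so the difference between the shRNAs is a description for them, and no call in that comparison counts as a test of these genes. The 10 genes are 10 of 19102 genes named on the array and carry 15 of 34127 probes. Of these genes 8 were bright enough to be tested, as were 14556 genes in all: a probe had to be well above background on the 48 h array and on the 96 h array of the same shRNA. IL1A and IL1R2 did not reach this.

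PC3 is an established prostate cancer cell line. Lentivirus delivered an shRNA against ALKBH3 (knockdown cells) or against GFP (control cells), and RNA was taken after 48 h or 96 h of selection with puromycin. All 4 groups therefore went through infection and selection, and each was hybridised once, to a single-colour Agilent array. The labels leave the ALKBH3 shRNA unnumbered and do not tie the time points to separate cultures, so that p-values measure only the spread between these arrays.

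The ligands of this family are mostly made without a signal peptide and leave the cell by unconventional routes, for IL-1beta and IL-18 after cleavage by caspase-1. IL-1alpha and IL-1beta bind IL1R1, which then recruits IL1RAP and signals through MYD88 and the IRAK kinases to NF-kB, while the product of IL1RN occupies the same receptor without signalling and IL1R2 binds ligand without a signalling domain. IL-18 signals through IL18R1 with IL18RAP, and IL-33 through IL1RL1, also called ST2, with IL1RAP.

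Signals are log2 intensities relative to the 75th percentile of the same array. Since probes differ in brightness, the signal of one probe is not set against that of another. The share of probes well above background was between 67.0% and 70.9% on an array. Leaving aside the control spots of the array design, 0 spots were saturated. With 4 arrays every value is imprecise. Standard errors of the knockdown difference come from a fit without the time point, unless stated otherwise. They therefore also hold the change from 48 h to 96 h. ALKBH3 itself had a signal of -0.74 in control cells and -2.48 after knockdown at 48 h, and of -0.89 and -2.41 at 96 h, which leaves 29.9% and 35.1% of the control level. A second ALKBH3 probe left 24.5% and 23.9%. The epithelial markers EPCAM, KRT8, KRT18, KRT19 and CDH1, 5 of 5, were well above background on all arrays, and KLK3, which encodes prostate-specific antigen, was so on none.

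The RefSeq promoter table of GRCh38.p14 has 19 entries for 9 of the 10 genes, and the 250 bases before the transcript start were searched on both strands. The promoter of IL1B is shown because IL1B was the member whose signal was over 2-fold lower, that of IL1A because it is the other IL-1 agonist and lies next to IL1B, and those of IL1RL1 because its difference was nearly equal at both time points. IL1B lies on the minus strand with its promoter at chr2:112836780-112837029, and the promoter shown for IL1A, the second of its 2 entries and on the same strand, is at chr2:112784494-112784743. The first IL1RL1 promoter is at chr2:102311313-102311562 and the second at chr2:102337007-102337256, both on the plus strand. Capitals mark matches to the motifs.
IL1B: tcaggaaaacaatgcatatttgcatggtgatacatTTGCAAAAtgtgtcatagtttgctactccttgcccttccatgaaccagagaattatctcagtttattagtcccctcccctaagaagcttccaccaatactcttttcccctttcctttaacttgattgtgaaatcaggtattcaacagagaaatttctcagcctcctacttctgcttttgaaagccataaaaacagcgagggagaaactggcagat
IL1A: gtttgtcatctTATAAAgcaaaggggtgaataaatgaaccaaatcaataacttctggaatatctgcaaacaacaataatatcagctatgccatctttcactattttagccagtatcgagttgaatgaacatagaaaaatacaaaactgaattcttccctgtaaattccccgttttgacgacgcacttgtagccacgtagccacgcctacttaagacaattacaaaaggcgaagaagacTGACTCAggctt
IL1RL1, first promoter: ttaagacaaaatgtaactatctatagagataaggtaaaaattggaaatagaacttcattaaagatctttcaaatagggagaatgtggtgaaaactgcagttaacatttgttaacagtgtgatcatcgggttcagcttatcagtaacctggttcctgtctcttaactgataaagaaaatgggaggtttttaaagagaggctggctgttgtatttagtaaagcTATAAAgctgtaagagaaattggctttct
IL1RL1, second promoter: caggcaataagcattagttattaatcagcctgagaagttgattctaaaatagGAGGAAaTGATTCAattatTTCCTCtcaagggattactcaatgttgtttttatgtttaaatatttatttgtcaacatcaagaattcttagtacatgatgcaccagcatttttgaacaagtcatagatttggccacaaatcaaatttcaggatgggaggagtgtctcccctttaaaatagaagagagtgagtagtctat

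The motifs were TATAAA for the TATA box, TGANTCA for AP-1, TTGCNNAA for C/EBP, GAGGAA for PU.1, GGG and CC separated by 5 bases for NF-kB, and TTTC repeated after 2 bases for the interferon response element. Of all 35116 promoters of this length, 10.7% held the TATA motif, 6.57% that of AP-1, 9.05% that of C/EBP, 23.6% that of PU.1, 54.4% that of NF-kB and 3.02% that of the interferon response element. The window of IL1B held a C/EBP match from 215 to 208 bases before the start and no other match. In the window shown for IL1A the TATA motif stood from 239 to 234 and the AP-1 motif from 12 to 6 bases before the start. The first IL1A entry, at chr2:112784401-112784650, overlaps it and held AP-1 matches from 105 to 99 and from 55 to 49 bases before its own start and no TATA motif. The first IL1RL1 promoter held the TATA motif from 29 to 24 bases before the start, and the second held an AP-1 match from 191 to 185 bases before the start, flanked by PU.1 matches on opposite strands that did not overlap it. Of the 3 entries of IL1RN, the first held 3 NF-kB matches and 1 AP-1 match, and the second an interferon response element. The other held a TATA motif on both strands, in overlapping letters, an NF-kB match and an interferon response element. It overlaps the second entry, and their interferon response element is the same stretch of sequence. The interferon response element was also found in 1 of the IL18R1 entries and in none of the entries of the other members. These matches describe the letters of the window and are no evidence of binding.

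IL1B, which encodes the secreted agonist IL-1beta, was the member with the largest difference between the shRNAs. Its signal was 1.58 in control cells and 0.19 after knockdown at 48 h, and 0.72 and -0.38 at 96 h. Both knockdown arrays were below both control arrays. In spot intensity, on the scale of each array, this was 6430 and 2605 at 48 h and 3850 and 1835 at 96 h. The probe was printed 10 times on each array, and all of these spots were well above background on every array. Spot signals ran from 1.50 to 1.73 in control cells and from 0.09 to 0.33 after knockdown at 48 h, and from 0.61 to 0.87 and from -0.56 to -0.18 at 96 h, so that no spot of one array reached those of another. Spots of an array share its RNA and show the precision of the measurement only. The log2 fold changes of -1.39 at 48 h and -1.10 at 96 h averaged -1.25. The standard error was 0.36, or 0.10 with time point as a replicate block. This was a level of 38.1% and 46.6% of control at the respective times and 2.37-fold lower on average. In RNA from whole cultures, fewer cells with the transcript and less transcript per cell cannot be told apart.

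**Figure D1:**
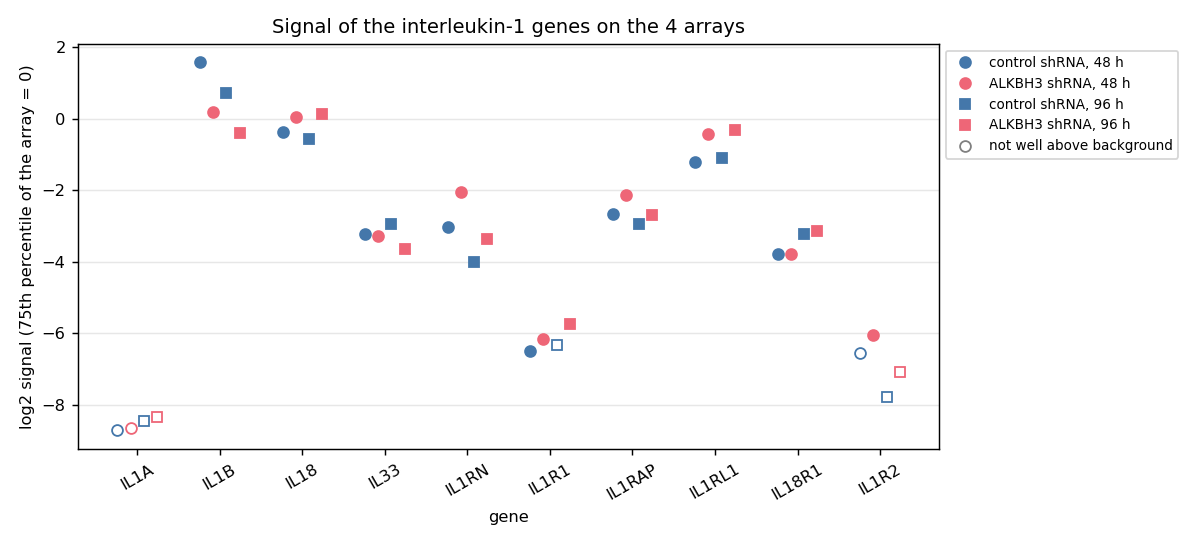
Log2 signal of the 10 interleukin-1 genes on each array, relative to the 75th percentile of the array, for the tested or first probe of each gene (x axis, gene). Each symbol is 1 array, with shRNA in colour and time in shape, and open symbols were not well above background. IL1B lies lower after knockdown at both times (0.19 and -0.38, against 1.58 and 0.72), IL18 and IL1RL1 lie higher, and heights are comparable within a gene only.

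IL1A, the gene of IL-1alpha, gave no usable signal in these cells. Its probe was also printed 10 times, its signal was -8.72, -8.64, -8.47 and -8.34 in the order control 48 h, ALKBH3 48 h, control 96 h and ALKBH3 96 h, and 0 of its spots were well above background on any array. No fold is given for IL1A, since both shRNAs were below background, and IL1A cannot be compared with IL1B here.

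IL18, the ligand of IL18R1, moved opposite to IL1B. Its signal was -0.37 in control cells and 0.05 after knockdown at 48 h, and -0.55 and 0.14 at 96 h. Both knockdown arrays were above both controls, and the ranges of its 10 spots did not overlap between the shRNAs at either time. The log2 fold changes of 0.42 at 48 h and 0.70 at 96 h averaged 0.56 (standard error 0.13), a 1.47-fold higher level.

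IL33, which encodes a nuclear cytokine released from damaged cells, had a signal of -3.22 in control cells and -3.28 after knockdown at 48 h, and of -2.96 and -3.65 at 96 h. The arrays at 48 h were nearly equal, with a log2 fold change of -0.06, and those at 96 h were not, with -0.70. Over all arrays the value was -0.38 (standard error 0.19).

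IL1RN, the gene of the receptor antagonist, was measured by a pair of probes that differed in size of response. The first probe had a signal of -3.01 in control cells and -2.04 after knockdown at 48 h, and of -4.02 and -3.37 at 96 h. It was higher after knockdown within each time point, by 0.97 and 0.65, whereas the arrays of the shRNAs overlapped across the times. Over all arrays its log2 fold change was 0.81 (standard error 0.57, or 0.11 with time point as a replicate block). With the second probe the signal was -4.90 and -4.74 at 48 h and -4.84 and -4.56 at 96 h, a log2 fold change of 0.16 and 0.28. Both probes were well above background on every array and carry the same transcript accession in the annotation. This value rested on single arrays: it was 0.14 when the 48 h knockdown array was dropped, 0.31 when the 96 h control was, 1.31 when the 48 h control was and 1.47 when the 96 h knockdown array was.

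Among the receptors, IL1RL1, the receptor of IL-33, differed most evenly. Its signal was -1.19 in control cells and -0.43 after knockdown at 48 h, and -1.09 and -0.30 at 96 h. The log2 fold changes of 0.76 at 48 h and 0.79 at 96 h averaged 0.77 (standard error 0.12), a 1.71-fold higher level, and when single arrays were left out it lay between 0.71 and 0.84.

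IL1R1, the signalling receptor of IL-1, was close to background. Its first probe had a signal of -6.51 and -6.16 in control and knockdown cells at 48 h and of -6.34 and -5.73 at 96 h, and the 96 h control was not well above background. Its second probe had -6.12 and -6.30 at 48 h and -7.01 and -6.20 at 96 h, and the same array was not well above background. At 48 h, where all arrays were measured, the probes disagreed in direction, with a log2 fold change of 0.34 for the first and -0.18 for the second. Over all arrays the first had 0.48 (standard error 0.19), and 0.16 with normexp background correction or 0.18 when quantile normalization followed it. For IL1RAP, the accessory chain shared by the IL-1 and IL-33 receptors, the signal of the first probe was -2.67 and -2.14 at 48 h and -2.93 and -2.68 at 96 h, a log2 fold change of 0.53 and 0.25. The second IL1RAP probe, annotated to another transcript of the gene, had -3.57 and -3.49 at 48 h and -3.74 and -3.50 at 96 h, a log2 fold change of 0.08 and 0.23. Both IL1RAP probes were higher after knockdown at each time, by unequal amounts. Without the 48 h knockdown array the log2 fold change of the first was 0.12, against 0.39 with all arrays (standard error 0.23).

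IL18R1, the ligand-binding chain of the IL-18 receptor, differed little between the shRNAs. The brightest probe had -3.77 and -3.77 at 48 h and -3.21 and -3.14 at 96 h, a log2 fold change of 0.03 over all arrays (standard error 0.30), and the second had -4.90 and -4.73 at 48 h and -4.43 and -4.34 at 96 h. The other probe was well above background only in control cells at 48 h and is not read further. IL1R2, the decoy receptor, had -6.56 in control cells and -6.04 after knockdown at 48 h, and -7.80 and -7.08 at 96 h. IL1R2 was well above background only on the 48 h knockdown array, so it was not tested and no fold is given.

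**Figure D2:**
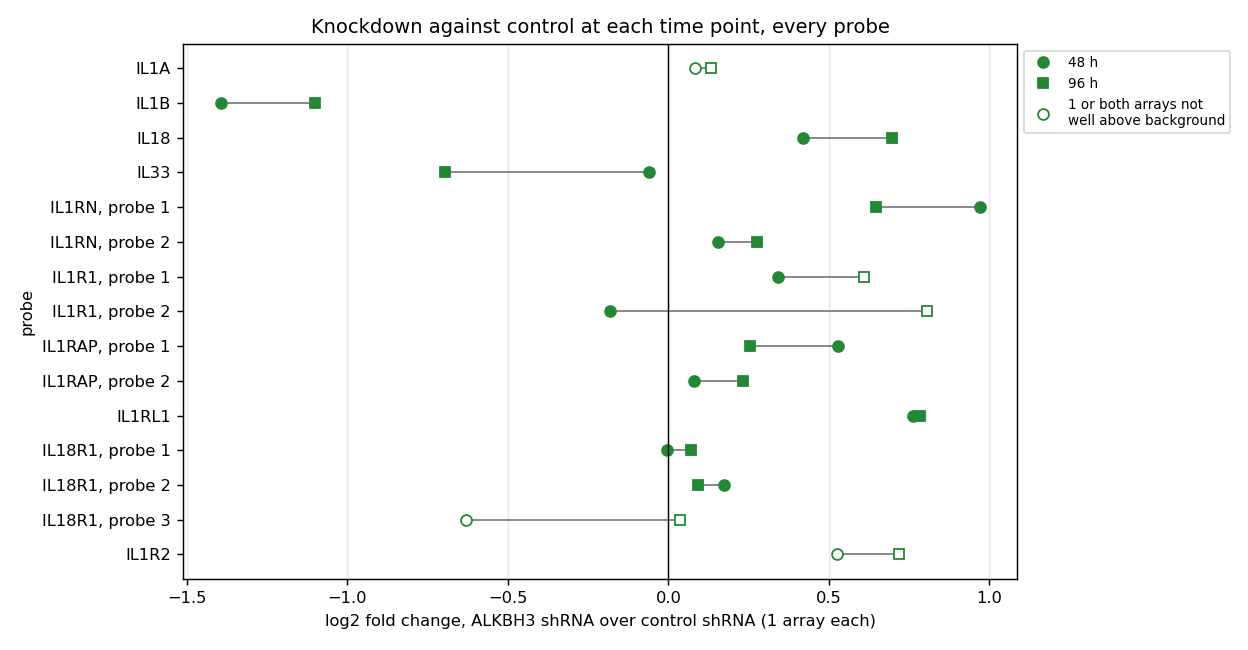
Log2 fold change of ALKBH3 shRNA over control shRNA (x axis) for each of the 15 probes of the interleukin-1 genes (y axis), with 1 array against 1 array at 48 h (circles) and 96 h (squares). Open symbols involve an array not well above background, as for IL1A and IL1R2, whose points are not read as folds. IL1B was more than 2-fold lower at both times (-1.39 and -1.10), the values of IL1RL1 nearly coincide (0.76 and 0.79), and the second IL1R1 probe crosses zero.

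At a change of at least 2-fold together with an unadjusted p under 0.05 in limma, 1 of the 8 members, IL1B, was called lower, where 0.234% of all genes tested were, and 0 were called higher, where 1.04% were. Since this comparison chose the members, nothing is read from these counts or from those that follow for it. By size of the difference IL1B stood at rank 16 among the 34 genes called lower. An unadjusted p below 0.05 was given to 3 members, IL1B, IL18 and IL1RL1, beside 8.33% of all genes, and an adjusted p below 0.05 to 0 members, beside 0% of all genes. When limma took the time point as a replicate block, 2 members were higher at an adjusted p below 0.05, IL1RL1 and IL1RN, beside 2.96% of all genes, and 1 was lower, IL1B, beside 1.5%. The arrays of the shRNAs did not overlap for 3 members that were higher, IL18, IL1RL1 and IL1R1, beside 17.4% of all genes, nor for 2 that were lower, IL1B and IL33, beside 19.1%. Of these, IL1R1 was not well above background on the 96 h control array and entered the test through the knockdown arrays alone. At both times 5 of the 8 members were higher, beside 34.6% of all genes, and 2 were lower, beside 35.6%. A 2-fold difference at either time was seen for 1 member, IL1B, beside 3.22% of all genes. The median log2 fold change of the 8 was 0.43, beside -0.0030 for all genes. IL1B was no longer called when the 48 h control array was dropped (-0.82), when the 96 h knockdown array was dropped (-0.96), or by the unpaired Student test named in the methods. IL1RN was called higher (1.47) when the 96 h knockdown array was dropped.

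The comparison of 96 h with 48 h was not used to choose the genes and was tested in limma with shRNA as a term. The 48 h arrays shared 1 slide and the 96 h arrays another, so time and slide cannot be told apart. Of the 8 members, 1 was higher at 96 h at an adjusted p below 0.05, where 5.84% of all genes were, and 2 were lower, where 6.94% were. IL1B fell with time under both shRNAs, with a log2 change of -0.86 in control cells and -0.57 after knockdown and of -0.72 in the fit (standard error 0.10, limma adjusted p = 0.0301). The order of its 4 arrays was control 48 h, control 96 h, ALKBH3 48 h and ALKBH3 96 h, from high to low. IL1RN also fell, with -1.01 in control cells, -1.33 after knockdown and -1.17 in the fit (standard error 0.11, limma adjusted p = 0.0236). This fall was seen with the first IL1RN probe alone, since the second changed by 0.12 (standard error 0.09, limma adjusted p = 0.401 over 23244 probes). IL18R1 was higher at 96 h, by 0.55 in control cells and 0.63 after knockdown and by 0.59 in the fit (standard error 0.08, limma adjusted p = 0.0276). Its second probe had 0.43 (standard error 0.09, limma adjusted p = 0.0507 over all probes).

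The other 5 members did not pass the test. IL1RAP had a log2 fold change of -0.40 from 48 h to 96 h (standard error 0.10, limma adjusted p = 0.0702), and its second probe -0.09. It was lower at 96 h with normexp (limma adjusted p = 0.0259), with normexp and quantile normalization (0.0344) and with the filter on all arrays (0.0499). IL1R1 had 0.30 (standard error 0.10, limma adjusted p = 0.116), and its second probe -0.40, of opposite sign. For IL1RL1 the value was 0.12, for IL18 -0.05 and for IL33 -0.05, with limma adjusted p of 0.328, 0.747 and 0.849. The arrays of the time points did not overlap for 1 member that was higher at 96 h, IL18R1, beside 26.6% of all genes, and for 2 that were lower, IL1RN and IL1RAP, beside 26%. The 3 calls were lost when shRNA was left out of the model, with a limma adjusted p of 0.576 for IL1B, 0.258 for IL1RN and 0.131 for IL18R1, and when dim probes were not filtered, with 0.127, 0.124 and 0.124.

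**Figure D3:**
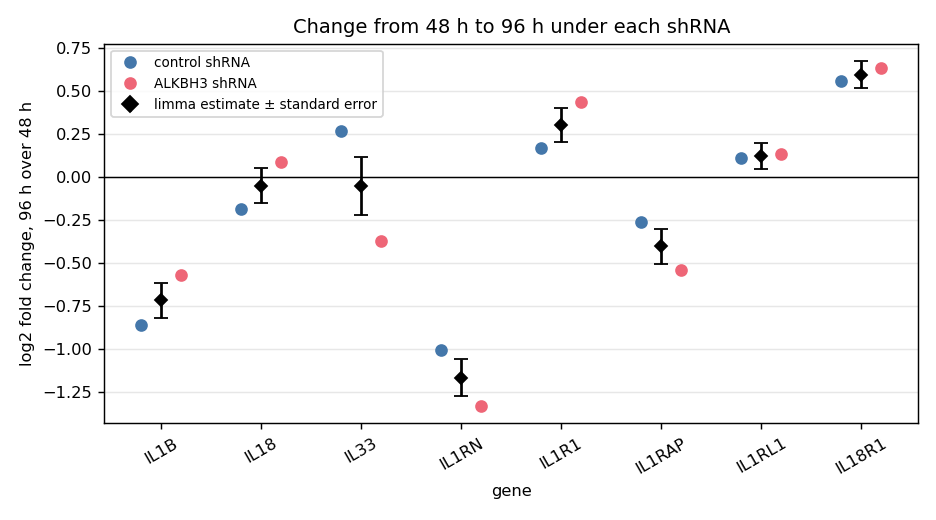
Log2 fold change from 48 h to 96 h (y axis) for the 8 tested interleukin-1 genes (x axis), under control shRNA and under ALKBH3 shRNA (coloured points, 1 array against 1 array), with the limma estimate and its standard error (black). IL1B and IL1RN lie below zero and IL18R1 above it under both shRNAs, at -0.72, -1.17 and 0.59 in the fit, and IL18 and IL33 change sign between the shRNAs.

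Genes that work with these cytokines were examined by lists. Of 12 other family genes, 8 were tested, and the median log2 fold change after knockdown was 0.19. In either direction 0 were called, beside 1.04% of all genes called higher and 0.234% called lower. The highest values were those of IL1RAPL1, 0.41 (standard error 0.14), and IL1F10, 0.29, and the lowest those of SIGIRR, an inhibitory receptor of the family, -0.36 (standard error 0.15), and IL37, an anti-inflammatory ligand, -0.28. IL36B, IL36G, IL36RN and IL1RL2 were not tested. From 48 h to 96 h IL37 was the family gene outside the members that changed, with signals of -0.61 and -1.14 in control and knockdown cells at 48 h and of -1.71 and -1.73 at 96 h (log2 fold change -0.84, standard error 0.14, limma adjusted p = 0.0376). Among 15 genes of cytokine processing and release, 10 were tested and 0 were called, beside the same shares, with a median of 0.27. In limma 2 of them had an unadjusted p below 0.05, beside 8.33% of all genes. CASP1, the protease that matures IL-1beta and IL-18, had a signal of -5.35 and -3.60 in control and knockdown cells at 48 h and of -6.11 and -6.04 at 96 h. Its difference was thus 1.76 at 48 h and 0.07 at 96 h (mean 0.91, standard error 0.86, limma adjusted p = 0.900). PYCARD, the inflammasome adaptor, had -0.42 at each time (standard error 0.12, limma adjusted p = 0.472), CAPN2 -0.10 and CASP4 0.37.

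In the signalling list 16 of 17 genes were tested, with a median of 0.02. Of these 0 were called, beside 1.04% of all genes higher and 0.234% lower. An unadjusted p below 0.05 in limma was given to 0, beside 8.33% of all genes. MYD88, the adaptor of the receptors, had 0.24 at 48 h and -0.21 at 96 h. The extremes were PELI2, 0.40, and IRAK2, 0.19, above zero and IKBKB, -0.17, and IRAK1, -0.12, below it. Of 10 transcription factors of IL1B 7 were tested and 0 were called, beside the same shares of all genes, with a median of 0.10. SPI1, which encodes PU.1, had 0.28, CEBPB 0.24, CEBPD -0.10 and NFKB1 -0.13, with a limma adjusted p of 0.638, 0.837, 0.946 and 0.896.

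Most genes that IL-1 is known to induce had higher signals on the arrays where IL1B was lower. Of 22 listed genes 19 were tested. A log2 fold change above zero was seen for 13 and below it for 6, each in the same direction at both times. Over all genes, 34.6% were higher and 35.6% lower at both times. The median of the list was 0.52, beside quartiles of -0.12 and 0.13 for all genes. Without the 96 h control array the median was 0.27, without the 48 h knockdown array 0.35, with normexp background correction 0.28, with the authors' values 0.31 and without a filter on dim probes 0.35. At the 2-fold cutoffs 2 were called higher, beside 1.04% of all genes, and 1 lower, beside 0.234%. In limma 8 had an unadjusted p below 0.05, beside 8.33%, and 0 passed an adjusted p of 0.05, beside 0%. CSF2, the gene of GM-CSF, had a signal of -3.96 and -1.69 in control and knockdown cells at 48 h and of -4.55 and -1.66 at 96 h, a mean difference of 2.58 (standard error 0.23, limma adjusted p = 0.253). CCL20, a chemokine, was dim on both control arrays and was at least 1.81-fold higher after knockdown (limma adjusted p = 0.348), with signals of -5.15 at 48 h and -6.50 at 96 h on the knockdown arrays. CSF3, the gene of G-CSF, was lower, with -5.03 and -6.20 at 48 h and -5.50 and -6.52 at 96 h (-1.09, standard error 0.22, limma adjusted p = 0.354), and MMP1, a collagenase, had -0.54. The bound for CCL20 compares it with the dimmest probes still well above background on those control arrays and is under the 2-fold cutoff, and CCL20 entered the test through the knockdown arrays alone. With CCL20 at its bound the median of the list was 0.52 as well. CSF3 was well above background on 3 of the arrays, so it entered the test through the arrays of 1 shRNA alone. With a filter on all arrays it was not called. With time point as a replicate block 8 genes of this list were higher at an adjusted p below 0.05 in limma, beside 2.96% of all genes. They were CSF2, CCL20, CXCL8, BIRC3, IL6, CXCL1, NFKBIA and TNFAIP3. In the same fit 1 gene of the list was lower, CSF3, beside 1.5%. Several of these genes were known from these arrays when the list was made, so the counts are no independent evidence of its direction. From 48 h to 96 h, 5 genes of the list were lower at an adjusted p below 0.05 in limma, beside 6.94% of all genes. They were CXCL8, IL6, CXCL1, CXCL2 and LCN2. None was higher, beside 5.84%, and the median of the list was -0.27.

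**Figure D4:**
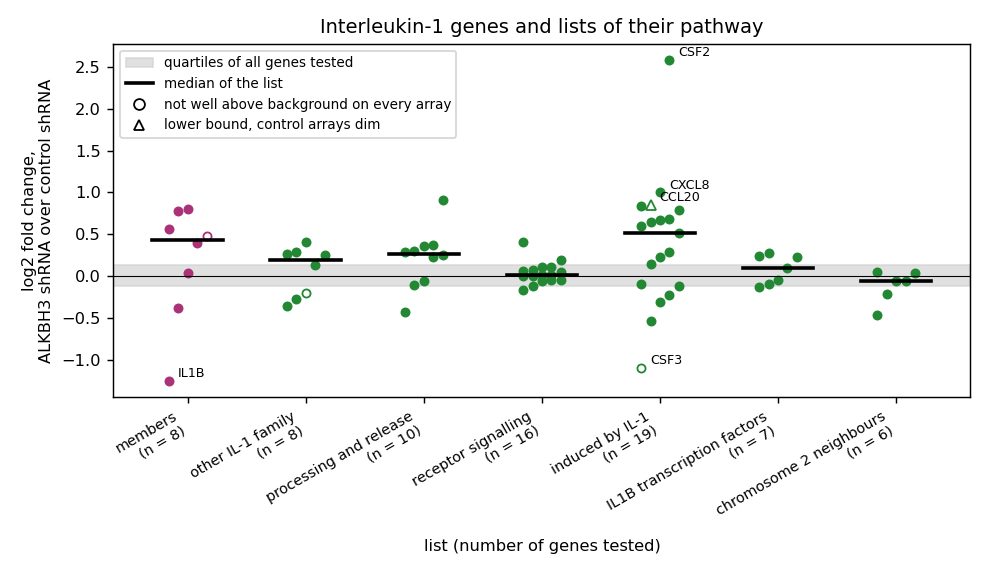
Log2 fold change of ALKBH3 shRNA over control shRNA (y axis) for the 8 tested interleukin-1 genes and for 6 lists of related genes (x axis, with the number tested), each circle 1 gene from the fit over 4 arrays. Black bars are medians and the grey band spans the quartiles of all 14556 genes, -0.12 and 0.13. Open symbols were not well above background on every array, and the triangle is the lower bound of CCL20, whose control arrays were dim. The median of the genes induced by IL-1 lies at 0.52, with CSF2 at 2.58, CSF3 at -1.09 and CCL20 at least 1.81-fold higher.

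The receptor genes IL1R2, IL1R1, IL1RL2, IL1RL1, IL18R1 and IL18RAP follow each other on chromosome 2, and IL1A, IL1B, IL37, the IL36 genes, IL1F10 and IL1RN form a second group there. Values differed within each group. In the order of the chromosome, leaving out IL1R1 for its dim control array, the log2 fold changes were 0.77 for IL1RL1, 0.03 for IL18R1 and 0.27 for IL18RAP, and in the ligand group -1.25 for IL1B, -0.28 for IL37, 0.25 for IL36A, 0.29 for IL1F10 and 0.81 for IL1RN. CKAP2L, the nearest tested gene on the other side of IL1B from IL37, had -0.06. Of 9 neighbours outside the family 6 were tested, with a median of -0.05. Of these 0 were called, beside 1.04% of all genes higher and 0.234% lower. MAP4K4, next to the receptor group, had -0.46 (standard error 0.13, limma adjusted p = 0.477) and SLC20A1, on the far side of IL1A, had -0.21, while PSD4 and SLC9A4 had 0.05 and 0.04.

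The genes whose 4 signals, each centred on its own mean, were nearest to those of IL1B included RASD1, KCNK12, TFPI and ZG16B. Their root mean square differences from IL1B over the 4 arrays were 0.075, 0.164, 0.169 and 0.170 on the log2 scale. RASD1 had a signal of 1.10 and -0.19 in control and knockdown cells at 48 h and of 0.16 and -0.78 at 96 h, in the same order of arrays as IL1B. The likeness rests on 4 arrays and is a description.

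Markers of other cells were measured beside the interleukin genes, since leukocytes make IL-1beta. Of 8 leukocyte markers named on the array 6 were well above background on all arrays, and their summed linear level, as a multiple of the 75th percentile, was 2.51 with control and 2.90 after knockdown at 48 h and 2.57 and 2.57 at 96 h. Of 7 fibroblast and endothelial markers 5 were well above background on all arrays, COL1A2 was so on none, and the sum was 0.83 and 1.05 at 48 h and 0.61 and 0.89 at 96 h. PC3 is a cell line, so these signals do not show that such cells were present, and their source was not tested. The 5 epithelial markers had a median log2 fold change of 0.03 after knockdown and a summed level of 181.3 and 166.4 at 48 h and of 166.1 and 161.4 at 96 h, control first. They differed among themselves, with 0.98 for EPCAM and 0.74 for CDH1 (limma adjusted p of 0.418 and 0.887) and 0.03, -0.07 and -0.18 for KRT8, KRT18 and KRT19. Each summed level is weighted to its brightest probes and does not stand for its list evenly. In control cells at 48 h these were KRT19 and KRT18 (signals of 7.03 and 5.30), FCER1G (0.61) and COL1A1 (-0.77).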

How the data were processed

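RNA of PC3 cells with either shRNA at either time was hybridised to 4 single-colour Agilent arrays. The authors deposited spot intensities that Agilent Feature Extraction 10.7.3.1, per the file headers, had background-subtracted on each array, and a table of log2 values after their own between-array normalization in limma.

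Spots flagged for poor quality by that software were left out (180 to 379 per array, of 43118 that are not control spots of the array). Log2 intensities were centred on the 75th percentile of the array (intensity 2150 and 2286 at 48 h, 2340 and 2394 at 96 h, control first) and averaged over the spots of a probe. A probe was well above background where at least 0.5 of its spots carried that mark. Accessions in the annotation were matched to the RefSeq gene table (GRCh38.p14) and gave symbols to 24910 of 34127 probes. CARD16, CARD17, NT5DC4, MFSD9, LYZ and AIF1 were not matched and not used here. The brightest tested probe stood for a gene. R 4.3.3, limma 3.58.1 (lmFit and eBayes) and Python 3.11.15 were used, and p-values were adjusted by the Benjamini-Hochberg method over 14556 genes. Steps were tested on simulated data.

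The text names the 10 members, ALKBH3, called genes and the highest and lowest 2 of each list, other genes (among them MYD88, EPCAM, IL6, CXCL8 and IL18RAP) picked after their values were seen, and the 5 genes nearest to IL1B, of which 1 is not reported here, nor is 1 prostate marker. The members and lists were chosen with earlier results of these data known. Each time point is 1 slide, so the replicate block pairs the arrays of a slide. Alternatives were quantile normalization, normexp (offset 50) alone or before it, median centring, the percentile over probes detected on all arrays, the authors' values, other filters and probes, the time point as a block, the Student test of the methods, and leaving out each array. Each probe of a member on its own was added after seeing the data.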

Additional observations from a re-analysis of the deposited data

Results flagged for a closer look

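Opposite directions were searched in matched comparisons, with 1 array against 1 array and the difference not tested. For the knockdown the search covered the members, the called genes and the highest and lowest 2 of each list other than the cell markers. From 48 h to 96 h it covered the members only. Among those well above background on all arrays, 3 genes were found. Genes outside this search, such as MYD88 above, also changed sign. IL18R1 had a log2 fold change after knockdown of -0.0048 at 48 h and 0.0717 at 96 h. From 48 h to 96 h IL18 had -0.189 in control cells and 0.0873 after knockdown, and IL33 had 0.26 in control cells and -0.37 after knockdown.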

How the results depend on the processing

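The lower signal of IL1B and the higher signals of IL18, IL1RL1, IL1RN, IL1RAP and IL1R1 kept their direction in every alternative run. When single arrays were left out, the difference after knockdown (log2) lay between -1.68 and -0.82 for IL1B, 0.46 and 0.65 for IL18, -0.56 and -0.19 for IL33, 0.14 and 1.47 for IL1RN, 0.26 and 0.69 for IL1R1, 0.12 and 0.66 for IL1RAP, and -0.28 and 0.35 for IL18R1. Members called then numbered between 0 and 1 in each direction, all genes between 149 and 381 higher and between 30 and 89 lower, genes of processing and release between 0 and 2 higher, and genes induced by IL-1 between 2 and 5 higher and between 0 and 1 lower. From 48 h to 96 h the range was -0.189 to 0.0873 for IL18 and -0.3712 to 0.2647 for IL33, with no test since no residual degrees of freedom remain. The list medians lay between -0.0054 and 0.46 for processing and release, -0.0657 and 0.1017 for signalling, -0.0275 and 0.1507 for the factors of IL1B, -0.169 and 0.0277 for the neighbours, and 0.27 and 0.61 for genes induced by IL-1.

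Counts over all genes moved more. Genes called higher were 62 and 63 with normexp without and with quantile normalization, 88 with the authors' values, 276 without a filter, 100 with a filter on all arrays and 45 with the Student test, and genes called lower were 22 and 21 with normexp, 56 without a filter and 15 with the Student test. With time point as a replicate block 649 genes and 3 members passed the adjusted p, against 0 and 0. With the Student test 0 members were called lower. Genes induced by IL-1 called higher were 1 with normexp in both forms, with the filter on all arrays and with the Student test, those called lower were 0 in these and with the authors' values, and 1 other family gene was called higher without a filter. From 48 h to 96 h, 1478, 1820 and 1537 genes were higher and 2127, 2269 and 1969 lower with normexp, with normexp and quantile normalization and with the authors' values, with 2 members higher in each (IL18R1 and IL1RL1). With no filter, and with shRNA not in the model, 0 genes and 0 members passed in either direction. The cause was not tested.

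Signs changed for values near zero. IL18R1 after knockdown was -0.0279 and -0.0269 with normexp without and with quantile normalization, -0.0059 with quantile normalization and -0.0357 with the authors' values. From 48 h to 96 h IL33 was 0.0188, 0.0023 and 0.0184 with normexp and quantile normalization, median centring and the authors' values, IL18 was 0.0047 with median centring, and IL1R1 was -0.0492 as the mean of its probes and -0.3978 with its other probe, while IL1RN was 0.1185 with its other probe. The signalling median was -0.0108 with median centring, and that of the factors of IL1B -0.0117 without a filter. Dim signals limit IL1A, IL1R2 and IL1R1.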
